A study of Mus musculus with 4 samples.

Results

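AP-1 is a transcription factor made of pairs of basic leucine zipper proteins, and the genes described here encode its Fos subunits (Fos, Fosb, Fosl1 and Fosl2), its Jun subunits (Jun, Junb and Jund) and Atf3, a relative that pairs with Jun proteins. All 8 genes were measured, by 12 probe sets that the platform annotation assigns to 1 of them alone, out of 45037 probe sets and 18193 genes. Fosl1, Fosl2, Jun and Jund had 2 probe sets each, the other 4 genes had 1 each, and no probe set assigned to several genes named a member. The members were chosen as a gene family.

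RNA came from chemically induced mouse squamous cell carcinomas of the skin, malignant tumours, from which tumour epithelial cells carrying a Sox2-GFP reporter were sorted. There were 2 arrays of Sox2-GFP-positive cells and 2 arrays of Sox2-GFP-negative cells, and the series text gives 2 tumours from 2 mice as their source. Both groups share the carcinogen-induced tumour, a collagenase I digestion of 2 h at 37 °C, and a gate for live single cells positive for Epcam that stained for none of CD45, CD31 and CD140a; the reporter is the stated difference between them. The sources used here do not give the strain, the age of the mice, the chemicals that induced the tumours or the construction of the reporter. Replicate numbers 1 and 2 come from the sample titles and are read here as the 2 tumours, which the labels do not state.

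Fos and Jun are immediate early genes: a growth factor, stress or the handling of a tissue switches them on within minutes through proteins already present in the cell, and their messages are short-lived. Fos proteins must pair with a Jun protein to bind DNA, whereas Jun proteins can also pair with each other, and the pairs differ in strength and in the genes they act on. Fosl1 and Fosl2, which lack the strong activating domain of Fos, appear later after a stimulus and are often maintained by the Ras and MAP kinase pathway. In skin, AP-1 acts in keratinocyte differentiation and wound repair, and mice without Fos form papillomas that do not progress to carcinoma.

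The family is switched on through short elements close to its own start sites, bound by proteins of the CREB, ATF and Jun families. Of the 8 genes, 7 had a promoter in the RefSeq table (GRCm38.p6, 250 bases before and 50 after the start), and Fosl1 was not among them. The letters TGACG, the half-site of a CREB or ATF element, were searched on both strands together with TGACGTCA, TGACATCA, TTACGTCA, the AP-1 site TGACTCA and the CArG box of serum response factor. These motifs were picked with the member sequences in view; TGACGTCA and TTACGTCA overlap TGACG on one strand or the other. The 5 promoters with a match are shown as the 120 bases before the annotated start, with the matched letters in capitals, because they belong to the genes whose messages respond fastest to a signal.
Fos, chr12:85473770-85473889, plus strand: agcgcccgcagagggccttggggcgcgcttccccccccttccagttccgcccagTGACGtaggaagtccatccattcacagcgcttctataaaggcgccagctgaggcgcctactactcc
Fosb, chr7:19310046-19310165, minus strand: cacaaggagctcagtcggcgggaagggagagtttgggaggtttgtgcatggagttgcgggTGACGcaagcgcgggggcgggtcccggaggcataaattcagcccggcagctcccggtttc
Jun, chr4:95052223-95052342, minus strand: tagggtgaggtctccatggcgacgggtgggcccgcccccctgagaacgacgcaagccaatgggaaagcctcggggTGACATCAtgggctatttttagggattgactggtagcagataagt
Junb, chr8:84978749-84978868, minus strand: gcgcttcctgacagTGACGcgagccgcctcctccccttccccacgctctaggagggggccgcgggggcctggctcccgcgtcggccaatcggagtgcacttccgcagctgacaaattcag
Atf3, chr1:191183334-191183453, minus strand: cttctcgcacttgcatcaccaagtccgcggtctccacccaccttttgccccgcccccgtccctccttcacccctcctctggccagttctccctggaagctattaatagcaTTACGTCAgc

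TGACG was present in 4 of the 7 member promoters (Fos, Fosb, Junb and Atf3), beside 20.8% of all 32851 promoter windows of that length. Fos held it at 66 bases and again at 129 bases before the start, the second lying outside the stretch shown, and Fosb held it at 60 bases. Jun held TGACATCA, found in 3.62% of all windows, at 45 bases before the start. Atf3 held TTACGTCA, found in 0.499% of all windows, at 10 bases before the start. No member window held TGACGTCA (1.79% of all), TGACTCA (5.20%) or a CArG box (1.63%), which says only that these letters are not in this window. Whether the RefSeq start is the main start of each gene was not tested; for Jund this is in doubt, so its window, which held none of the motifs, may lie away from its main promoter. The matches are descriptions of sequence, and the arrays do not measure binding at them.

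Keratinocyte markers were bright in both groups. Krt5, Krt14 and Trp63, which mark the basal layer, read 12.37 to 13.32 on the log2 scale over the 4 arrays, and Epcam read 10.75 to 11.80. Of the 6 keratinocyte markers 2 (Trp63 and Krt14) were higher in each positive array than in any negative one, 3 (Cdh1, Perp and Krt5) were lower and Epcam overlapped, with mean levels of 11.98 and 12.28 in positive and 12.22 and 12.38 in negative arrays. The widest step was that of Cdh1, E-cadherin of epithelial junctions, at 9.64 and 10.36 versus 10.74 and 11.18 (limma adjusted p = 0.328). Sox2 itself lay near the floor, at 3.50 and 3.27 in positive and 3.14 and 3.43 in negative cells, where the 5th percentile of the arrays was 3.34 to 3.37, so its transcript gave no check of the group labels. All 9 fibroblast markers were lower in each positive array than in any negative one. Their mean log2 level was 8.67 and 6.32 in positive and 10.86 and 9.20 in negative arrays, replicate 1 first. The brightest of them, Col1a1, read 12.57 and 9.60 in positive and 13.68 and 12.76 in negative arrays. The negative arrays thus held a fibroblast transcript at a signal near that of the keratins. Of 6 endothelial markers 1 (Emcn) was separated in that direction, with mean levels of 5.85 and 5.23 against 7.37 and 5.72. Of 10 leukocyte markers 1 (Cd3e) lay below and 1 (Cd68) above (mean levels of 5.89 and 5.30 against 6.72 and 5.65), and all 4 melanocyte markers lay below (4.75 and 4.02 against 6.36 and 5.83). The genes that define the gates stood at 5.93 and 4.85 against 7.83 and 5.96 for Pdgfra (CD140a), 5.57 and 6.41 against 8.44 and 6.27 for Pecam1 (CD31), and 4.98 and 4.34 against 4.97 and 4.18 for Ptprc (CD45). The part of these other cell types in the AP-1 values was not tested, and in such bulk samples fewer cells of a type and less RNA per cell cannot be told apart.

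The question put to the AP-1 genes was whether their transcripts stand at another level in tumour epithelial cells with the reporter than in those without it. All 8 genes read above the array median (5.49 to 5.61) on every array in at least 1 probe set, and the groups lay close together. The Fosl1 readings were higher and the Fosl2 and brighter Jund readings lower in positive cells, by at most 1.60-fold, while Fos was level. No member passed an adjusted p of 0.05 in limma, and neither did any other probe set on the array (0% of 45037). Of the 12 probe sets, 10 stood above the 90th percentile of all probe sets (9.30 to 9.45) on all 4 arrays, the exceptions being Junb and the dimmer Jund probe set. Probe sets differ in how strongly they bind, so these positions describe signal and do not order the genes by abundance.

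**Figure D1:**
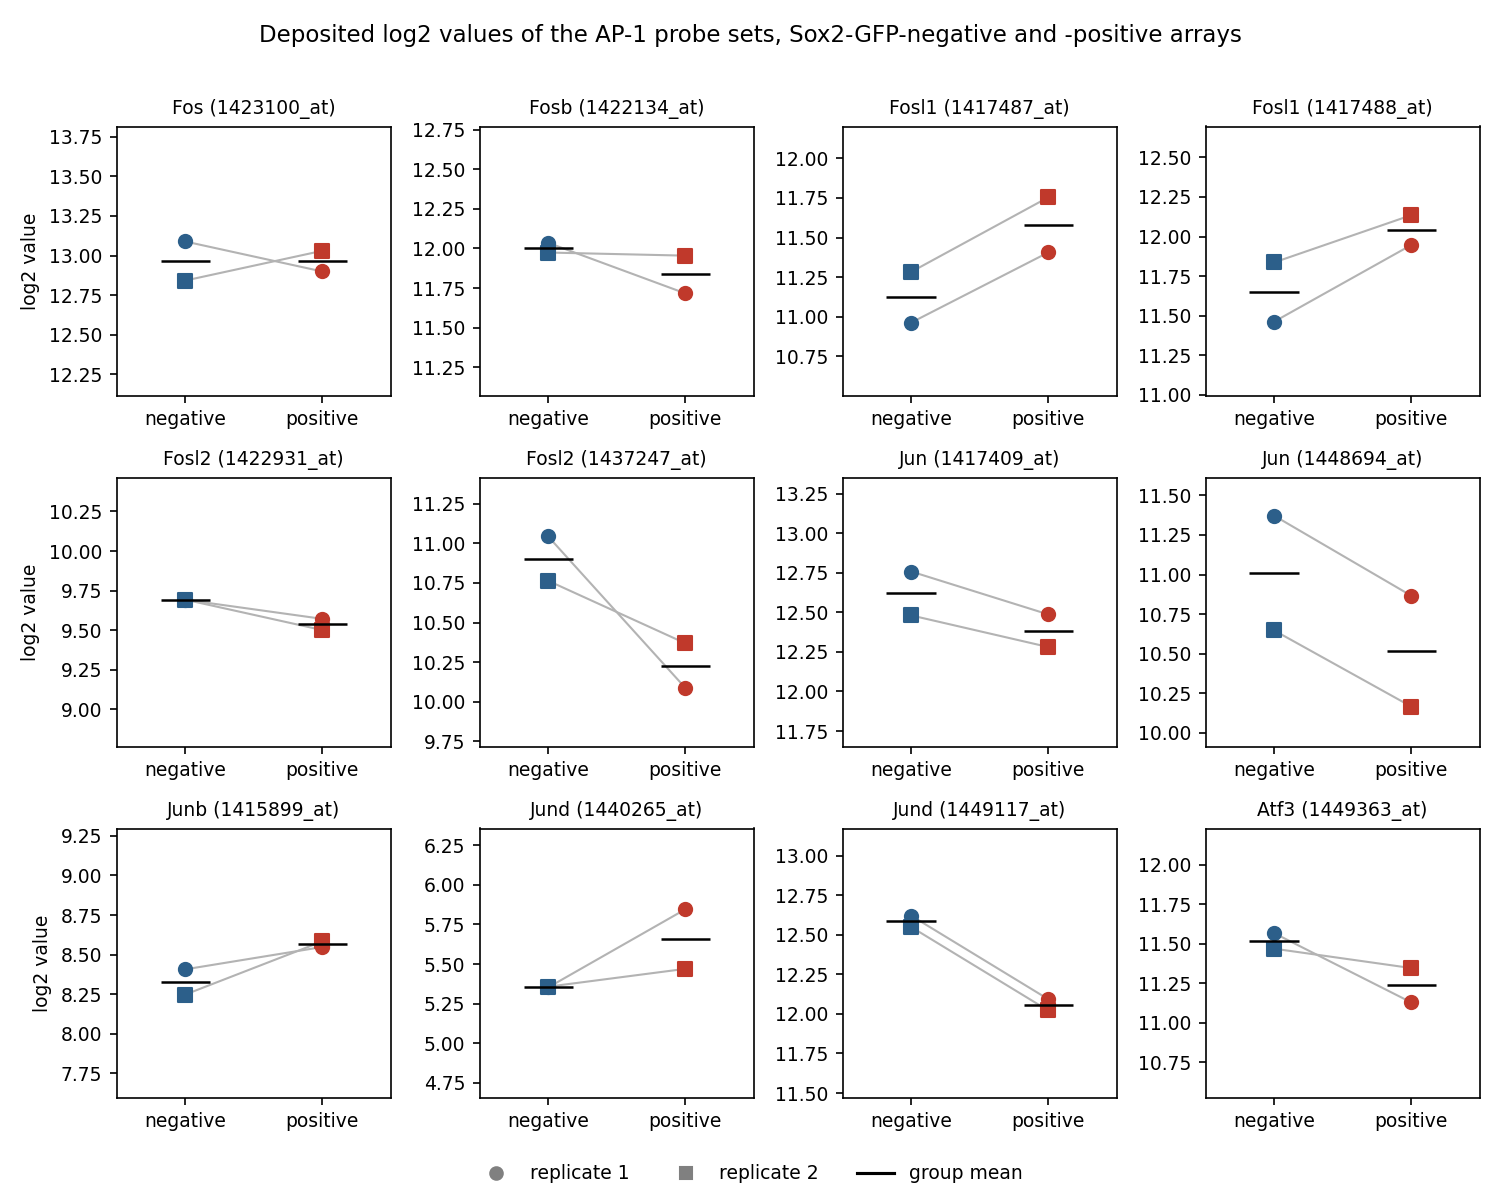
Deposited log2 values of the 12 AP-1 probe sets in Sox2-GFP-negative (blue) and Sox2-GFP-positive (red) arrays, with circles for replicate 1, squares for replicate 2, grey lines joining arrays of the same number and black bars for group means; every panel spans the same log2 range. Both Fosl1 panels slope upward, the right-hand Jund panel slopes downward by the same amount in both replicates, and the Fos lines cross.

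Fos, the founding member of the family and the subunit most strongly induced by stimuli, read 12.90 and 13.03 in positive cells versus 13.09 and 12.84 in negative cells (probe set 1423100_at). The groups overlapped completely, the positive array being lower in replicate 1 and higher in replicate 2. The log2 difference came to -0.00074 ± 0.19 (SE, n = 2 per group; limma adjusted p = 0.999), with a 95% interval from -0.51 to 0.51. That interval spans ratios of 0.702 to 1.42 and holds for the deposited scale alone. On another scale, described below, the Fos difference was 0.59, outside this interval. The brightest values of the arrays were 13.99 to 14.36; whether readings this close to the top of the range are compressed was not tested.

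Fosb, a close relative of Fos with similar induction, read 11.72 and 11.95 in positive cells versus 12.04 and 11.97 in negative cells (1422134_at). Both positive arrays lay below both negative ones, but in replicate 2 by only 0.02. The difference came to -0.17 ± 0.19 (SE, n = 2 per group; limma adjusted p = 0.715), and was -0.05 without positive replicate 1 and -0.29 without positive replicate 2.

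Fosl1, which encodes Fra-1 and is known as the Fos-family subunit most tied to Ras signalling and invasion in carcinomas, was the member with the highest positive difference. Its probe set 1417487_at read 11.41 and 11.75 in positive cells versus 10.96 and 11.28 in negative cells. Its probe set 1417488_at read 11.95 and 12.13 versus 11.46 and 11.84. In both probe sets the positive arrays stood above the negative ones, and within each group replicate 2 stood above replicate 1. The differences were 0.46 ± 0.23 and 0.39 ± 0.22 (SE, n = 2 per group; limma adjusted p = 0.450 and 0.487), which are ratios of 1.37 and 1.31. By replicate number they were 0.44 and 0.47 in the first probe set and 0.48 and 0.30 in the second, so the same-numbered arrays gave differences of like size. Both differences moved when 1 array was left out, which unbalances the replicate numbers. Without negative replicate 1 the differences were 0.30 and 0.20, and without positive replicate 2 they were 0.28 and 0.30. Without positive replicate 1 they were 0.63 and 0.49, and without negative replicate 2 they were 0.62 and 0.58. Replicate 2 exceeded replicate 1 by 0.19 to 0.37 in these probe sets, beside group differences of 0.46 and 0.39. In the negative arrays of 1417488_at this step was 0.37, nearly as large as the group difference.

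Fosl2, which encodes Fra-2 and acts in keratinocyte differentiation, went the other way. Probe set 1437247_at read 10.09 and 10.37 in positive cells versus 11.04 and 10.76 in negative cells, the widest difference in means of any member; the gap between its groups was 0.39, beside 0.46 for the brighter Jund probe set. Probe set 1422931_at read 9.57 and 9.50 versus 9.69 and 9.69, the same direction with a far smaller step. The differences were -0.68 ± 0.21 and -0.16 ± 0.17 (SE, n = 2 per group; limma adjusted p = 0.310 and 0.712). The first is 1.60-fold lower in positive cells, with a 95% interval from 1.08-fold to 2.37-fold that is not adjusted for the number of probe sets, and the second 1.11-fold lower. By replicate number the first probe set gave -0.96 and -0.39, so its size rested more on replicate 1.

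Jun, which encodes c-Jun and can pair with itself or with any Fos protein, read lower in the positive array of each replicate number but overlapped between groups. Probe set 1417409_at read 12.49 and 12.28 in positive cells versus 12.76 and 12.48 in negative cells. Probe set 1448694_at read 10.87 and 10.17 versus 11.37 and 10.65. The replicate numbers were also apart: in the second probe set replicate 2 lay below replicate 1 by 0.70 in the positive and by 0.72 in the negative arrays, more than the difference between groups. That difference came to -0.49 ± 0.37 (SE, n = 2 per group; limma adjusted p = 0.594), made of -0.51 in replicate 1 and -0.48 in replicate 2. Leaving out 1 array unbalances the replicate numbers, and the difference was then -0.13 without negative replicate 1, -0.14 without positive replicate 2, -0.84 without positive replicate 1 and -0.86 without negative replicate 2. With the replicate number as a block its SE was 0.21 (limma adjusted p = 0.363). For probe set 1417409_at the difference came to -0.24 ± 0.20 (SE, n = 2 per group; limma adjusted p = 0.640), and was -0.10 without negative replicate 1, -0.13 without positive replicate 2 and -0.37 without negative replicate 2.

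Junb, a weaker activator that can restrain c-Jun and limits keratinocyte inflammation in skin, read 8.55 and 8.58 in positive cells versus 8.41 and 8.25 in negative cells (1415899_at). The positive arrays stood above the negative ones by a narrow margin. The difference came to 0.24 ± 0.18 (SE, n = 2 per group; limma adjusted p = 0.588), and was 0.16 without negative replicate 2.

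Jund, the subunit that is expressed steadily and is often linked to restraint of growth, gave opposite readings in its 2 probe sets. The brighter, 1449117_at, read 12.09 and 12.02 in positive cells versus 12.62 and 12.55 in negative cells. The dimmer, 1440265_at, read 5.85 and 5.47 versus 5.35 and 5.36, near the array medians of 5.49 to 5.61. In the brighter probe set the groups were well apart and the replicates of each group lay within 0.07 of each other. Its difference came to -0.53 ± 0.17 (SE, n = 2 per group; limma adjusted p = 0.319), a 1.44-fold lower reading in positive cells, and it was -0.53 in each replicate number. It was the sole member called under any setting tried, and only when the replicate block was combined with a trended variance prior (limma adjusted p = 0.0298), a setting added after seeing the data that called 5.58% of all probe sets; the other settings gave this probe set no call. The dimmer probe set differed by 0.30 ± 0.21 (SE, n = 2 per group; limma adjusted p = 0.562), and by 0.11 without positive replicate 1 and 0.49 without positive replicate 2. The direction for Jund thus depends on the probe set read.

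Atf3, a stress-induced factor that pairs with Jun proteins and also represses genes, read 11.13 and 11.35 in positive cells versus 11.57 and 11.47 in negative cells (1449363_at). Both positive arrays lay below both negative ones, by 0.44 in replicate 1 and 0.12 in replicate 2. The difference came to -0.28 ± 0.19 (SE, n = 2 per group; limma adjusted p = 0.549), and was -0.17 without positive replicate 1.

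**Figure D2:**
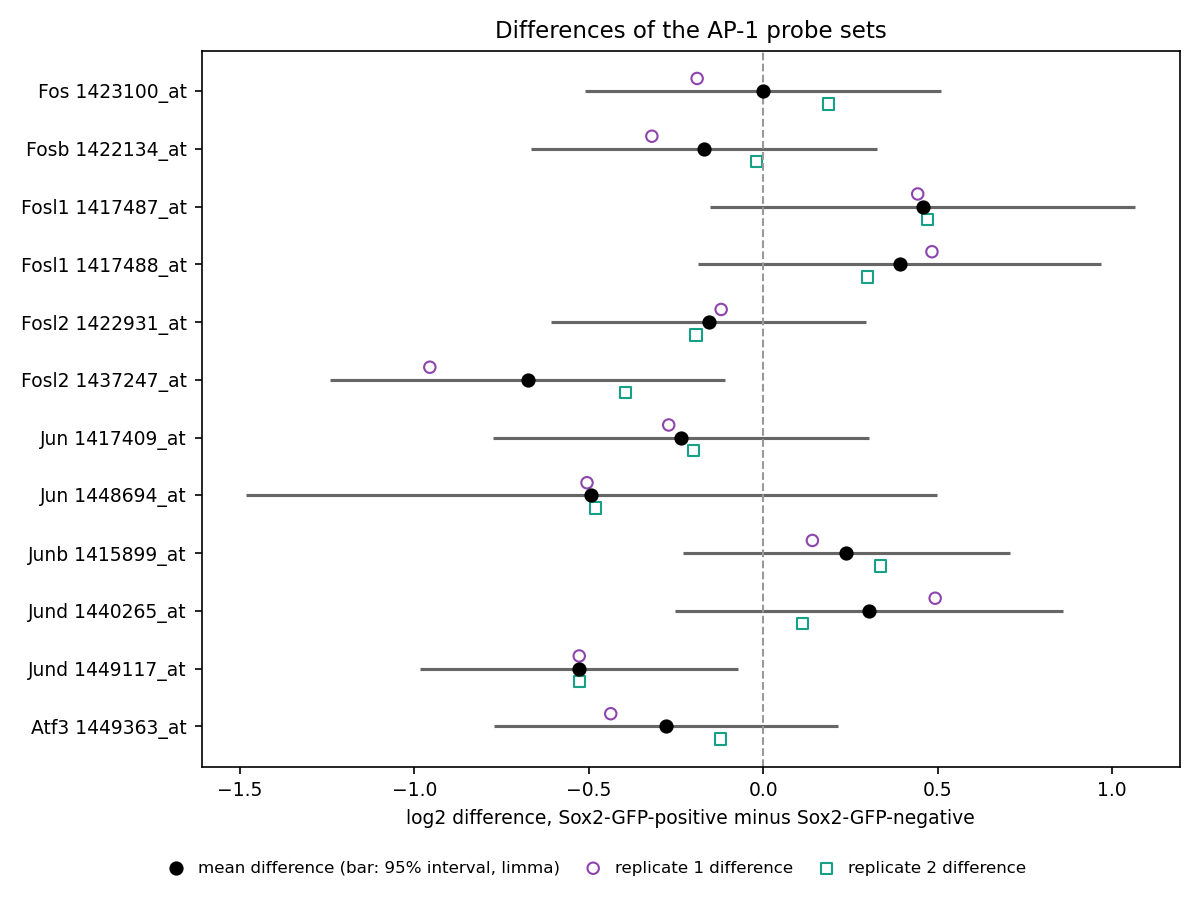
Log2 difference, Sox2-GFP-positive minus Sox2-GFP-negative, for the 12 AP-1 probe sets; black points are means with 95% limma intervals (not adjusted for multiple tests), open circles and squares the differences within replicate 1 and replicate 2. The intervals of Fosl2 1437247_at and Jund 1449117_at lie wholly below 0, and those of the other 10 probe sets span it.

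Counted over the family, in 4 of the 12 probe sets each positive array exceeded each negative one (both of Fosl1, Junb and the dimmer Jund probe set), in 5 each was below (Fosb, both of Fosl2, the brighter Jund and Atf3), and 3 overlapped (Fos and both of Jun). Over all probe sets 29.7% lay above and 18.4% below. Among the 4504 bright probe sets, with a mean at or above the 90th percentile, it was 41.7% and 17.9%. Of the 12 members, 10 were among these bright ones. Leaving out 1 array gave 4 or 5 of the 12 above, beside 40.3% to 46.6% of all probe sets. It gave 5 to 8 below, beside 28.9% to 32.4%. The 8 came without negative replicate 2, and fewer arrays make separation easier. In 11 of the 12, Fos being the exception, the positive minus negative difference had the same sign in both replicate numbers, beside 62.7% of all probe sets, dim ones included. Wherever the groups were apart this follows by construction, so it is not a separate result. The 12 differences ran from -0.68 to 0.46 with a median of -0.16, while the median was 0.07 over all probe sets and 0.13 over the bright ones. The median size of the 12 regardless of sign was 0.29, beside 0.27 over all probe sets and 0.29 over the bright ones. None of the 12 had its groups at least 1 log2 unit apart, beside 825 of all probe sets (1.83%); leaving out any 1 array gave 1874 to 2706 of all probe sets and still no member.

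At an unadjusted limma p under 0.05 stood 2 of the 12 (Fosl2 1437247_at and the brighter Jund probe set, both lower in positive cells), beside 14.0% of all probe sets in either direction and 6.61% lower; with the replicate number as a block it was 1 of the 12, beside 15.8%. Adjusted p ran from 0.310 to 0.999 without the block and over the same range with it. With 2 arrays against 2 an exact permutation test of 1 probe set cannot give a two-sided p below 0.333.

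The direction of 7 of the 12 differences also rests on how the arrays are put on 1 scale. The deposited scale was kept for all values above. The arrays were also scaled on 15 control probe sets for bacterial poly-A transcripts, which are meant as spike-ins. These were picked by name alone, and whether such transcripts had been added to these samples was not tested. This scaling raised every difference by 0.59 and the median over all probe sets from 0.07 to 0.66. On that scale 9 of the 12 member probe sets lay above and 0 below, beside 73.4% and 3.32% of all probe sets, and the family median was 0.43. After quantile normalization the split was 4 above and 6 below, and with equal medians 4 above and 4 below, beside 29.8% and 18.7%, and 37.8% and 14.2%, of all probe sets. Relative to the median of all probe sets, Fosl1, Junb and the dimmer Jund probe set stood above and the other 8 below, as deposited and after quantile normalization. Equal medians and spike-in scaling shift all differences by a constant, so these relative values could not change there.

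**Figure D3:**
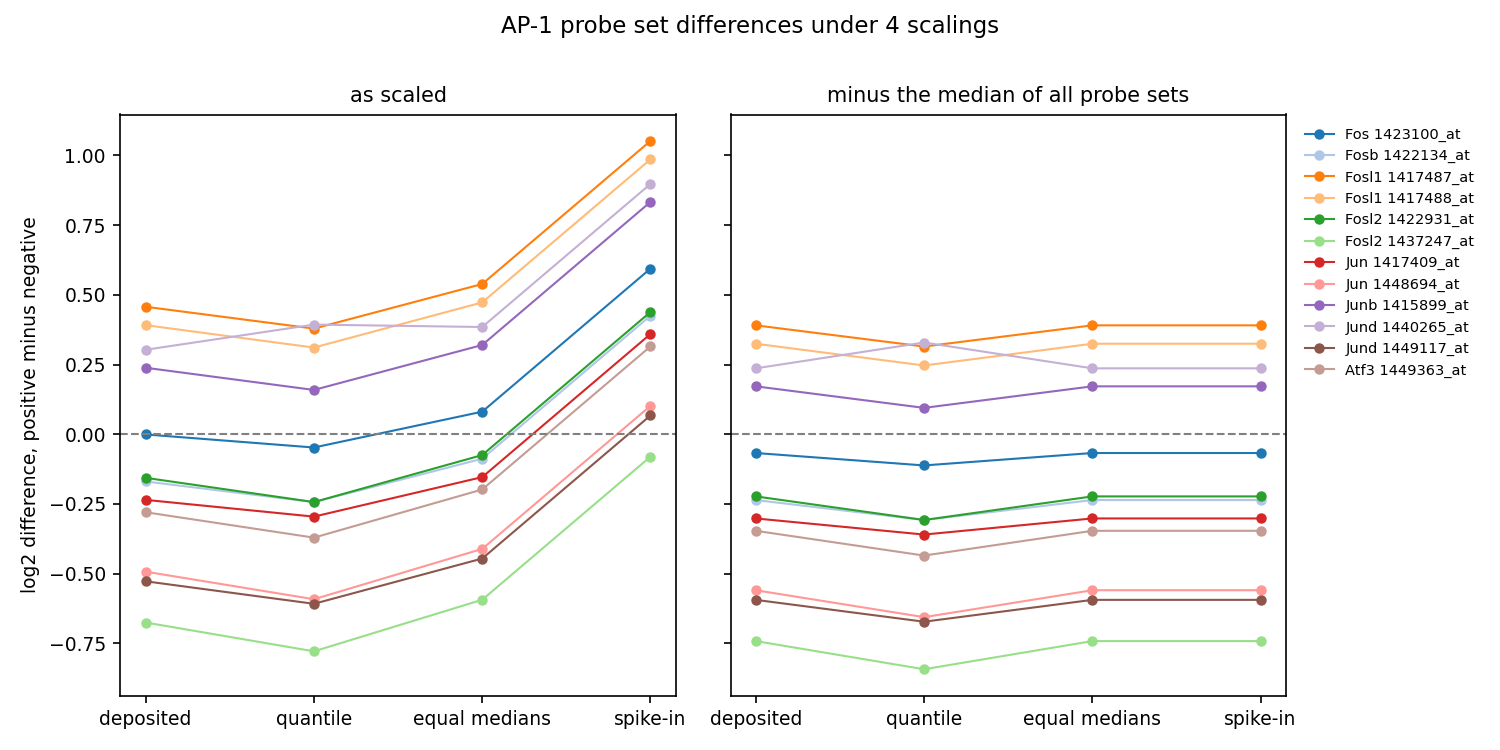
Log2 differences (positive minus negative) of the 12 AP-1 probe sets under the deposited scale, quantile normalization, equal array medians and scaling to poly-A spike-in probe sets, as scaled (left) and after subtracting the median of all probe sets (right). The spike-in scale lifts all lines by the same 0.59. In the right panel only the quantile points can differ from the deposited ones, and their order is nearly the same. Equal medians and spike-in scaling shift all differences by a constant.

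The rest of the pathway was read from lists of genes around AP-1, with 87 of 93 listed genes measured and each gene taken from its brightest probe set. Over all 18193 genes read this way the median difference came to 0.14, with 35.5% of genes having both positive arrays above and 14.0% both below; the 8 AP-1 genes gave 2 above, 4 below and a median of -0.20. No listed gene passed an adjusted p of 0.05 in limma, with or without the block, and neither did any of the 18193 (0%). All of these directions are on the deposited scale, and genes named in brackets beside a count were added after their values were seen.

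Partners and relatives of AP-1 are other basic leucine zipper proteins. Of 18 measured, 4 lay above (Nfe2l2, Maf, Atf2 and Creb1), 6 below and 8 overlapped, with a median of -0.08, and 1 had an unadjusted limma p under 0.05, beside 14.9% of all genes. That gene was Atf6, a sensor of unfolded protein in the endoplasmic reticulum, at 7.90 and 8.22 in positive cells versus 8.53 and 8.99 in negative cells (limma adjusted p = 0.343). Nfe2l2, the regulator of antioxidant genes, read 10.63 and 10.79 versus 10.43 and 10.27, and Maf, which pairs with Fos and Jun, read 11.53 and 11.11 versus 11.06 and 10.65. Cebpb, a factor of keratinocyte differentiation that can pair with AP-1 proteins, read 10.85 and 10.18 versus 11.29 and 10.88. These 3 had limma adjusted p of 0.451 to 0.480.

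Upstream of AP-1, the MAP kinases, the serum response factors and the ligases that remove Jun showed 6 genes above, 2 below (Elk4 and Map2k4) and 10 overlapping of 18 measured, with a median of 0.06. Of the 18, 3 had an unadjusted limma p under 0.05, all higher in positive cells, beside 14.9% of all genes in either direction. Elk3, a partner of serum response factor that acts on the Fos promoter, had the widest step, at 9.98 and 10.77 in positive cells versus 9.34 and 8.53 in negative cells, a ratio of 2.71 (log2 difference 1.44 ± 0.41 SE, n = 2 per group; limma adjusted p = 0.286). Elk1, its relative, read 6.73 and 6.91 versus 6.36 and 6.13, and Map2k2, a kinase that activates ERK, read 9.51 and 9.55 versus 9.03 and 9.02 (limma adjusted p = 0.328 and 0.324). Mapk10, a JNK kinase known mainly from neurons, was dim at 4.27 and 4.17 against 3.85 and 3.87.

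Among known AP-1 target genes of skin and carcinoma, 7 of 22 differed by at least 1 log2 unit on average, while 0 of the 8 AP-1 genes and 6.85% of all genes did. The list was chosen with earlier results of these data known, so this share is a description only. S100a8, among the 7, overlapped between groups, at 11.60 and 8.24 in positive cells versus 11.25 and 10.99 in negative cells. Of the 22, 12 lay above, 3 below (Il6, Timp1 and Sprr1a) and 7 overlapped, with a median of 0.40. An unadjusted limma p under 0.05 was found for 10, 7 higher and 3 lower, beside 14.9% of all genes in either direction. Il6, an inflammatory cytokine, had the smallest p and read 4.88 and 5.43 in positive cells versus 8.14 and 7.60 in negative cells, 6.58-fold lower in positive cells (limma adjusted p = 0.226). Tgfb1, a cytokine that arrests keratinocytes and promotes invasion, read 9.19 and 9.48 versus 7.43 and 8.13, a ratio of 2.93. Ccnd1, the G1 cyclin, read 11.30 and 11.77 versus 10.45 and 10.13, and Pdpn, a membrane protein of invading keratinocytes, read 10.78 and 11.41 versus 9.89 and 9.34 (limma adjusted p = 0.243 to 0.249 for these 3). Many of these genes answer to other factors as well, and Il6 and Pdpn are also made by fibroblasts, whose markers lay lower in positive cells in 9 of 9 cases; the part of fibroblast RNA in these values was not tested.

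Other immediate early genes and genes known to be induced when tissue is digested gave 4 above (Hspb1, Ier3, Dnajb1 and Hsp90aa1), 10 below and 15 overlapping of 29 measured, with a median of -0.14. Of the 29, 4 had an unadjusted limma p under 0.05, 1 higher and 3 lower, beside 14.9% of all genes in either direction. Egr2, a zinc finger factor induced alongside Fos, read 8.31 and 7.28 versus 11.23 and 10.50, which is 8.42-fold lower in positive cells. Its relative Egr3 was at 7.74 and 7.70 versus 8.95 and 8.98, 2.38-fold lower (limma adjusted p = 0.226 for both). Fos, induced by many of the same signals, had a ratio of 0.999 on the same arrays. Ccn2, a matrix-associated growth factor also made by fibroblasts, read 6.62 and 4.64 versus 9.99 and 7.87, while Hspb1, a small heat shock protein, read 13.07 and 13.21 versus 12.59 and 12.05 (limma adjusted p = 0.294 and 0.300). The mean log2 level of the list was 10.83 and 10.93 in positive and 11.36 and 11.07 in negative arrays, so negative replicate 1 was highest. The part of digestion or cell handling in the level of the AP-1 transcripts was not tested, since all 4 arrays came from digested tumours.

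**Figure D4:**
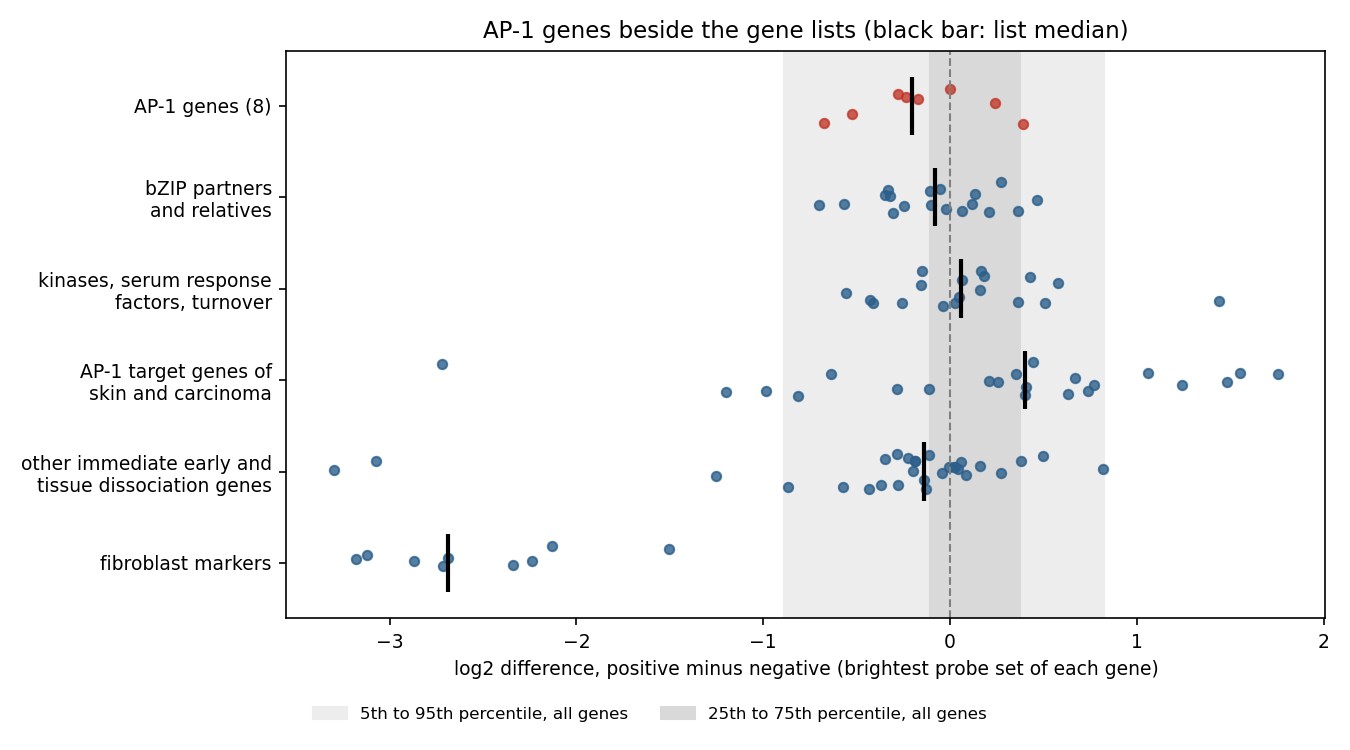
Log2 difference (positive minus negative) of the 8 AP-1 genes (red) and of the genes of 4 pathway lists and the fibroblast marker list (blue), 1 point per gene from its brightest probe set; black bars are list medians and grey bands the spread over all 18193 genes. The AP-1 genes lie between -0.68 and 0.39, inside the band that holds the 5th to 95th percentile of all genes (-0.89 to 0.82), whereas all fibroblast markers lie below it.

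Genes of like pattern were sought for the 2 members whose brightest probe set varied most over the 4 arrays, Fosl2 (range 0.96) and Fosl1 (range 0.67). Likeness was the root mean square distance between log2 values centred on each gene's 4-array mean, among 10964 genes at or above the median level. Nearest to Fosl2 were Usp53, Pla2g6 and Cdip1, at distances of 0.03, 0.05 and 0.05; Usp53, for example, read 8.50 and 8.83 in positive cells versus 9.55 and 9.22 in negative cells. Nearest to Fosl1 were Proser1, Synrg and Capza2, at distances of 0.02 each, and Capza2, an actin capping subunit, read 10.68 and 10.88 versus 10.24 and 10.62. Over 4 arrays this likeness is a description only.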

How the data were processed

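RNA from 4 sorted cell samples (2 Sox2-GFP-positive, 2 Sox2-GFP-negative) was amplified from 100 ng of total RNA, biotin-labelled and hybridised to 1 Affymetrix mouse array each, per the labels' protocols. The values, deposited by the authors as log2 numbers in 1 table, cover 45101 probe sets; that the scale is log2 was read from their range. The submitters' processing notes name R 2.14.0; how background was corrected and how probes were normalized and summarised is not given in the sources used here. There are no detection calls, and the number of arrays limits the precision.

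The 64 control probe sets were left out. Groups and replicate numbers came from the titles, and genes from the platform annotation (34945 probe sets with 1 symbol, 932 with several, 9160 with none); 4 listed genes were matched through gene numbers of the RefSeq table. The test was limma 3.58.1 in R 4.3.3 (lmFit, eBayes, group as the only term, 2 residual degrees of freedom and a prior of 2.56), with Benjamini-Hochberg adjustment over all 45037 probe sets, two-sided, at 0.05; the code was tested on simulated data. Intervals are 95% limma intervals. Treating arrays of the same number as 1 tumour is an assumption, made because the series text gives 2 tumours as the source of both groups. The labels do not state this link. The replicate 1 minus replicate 2 differences of the groups correlated across probe sets with r = 0.18, a weak relation over probe sets that are not independent. The replicate block is therefore an alternative.

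Named genes were all members, up to 4 members with the smallest p of each list, and the 3 genes most like each of 2 members. The members and lists were chosen with earlier results of these data known. Alternatives were the replicate block, quantile, equal-median and spike-in scaling, leaving out dim probe sets, 1 probe set per gene, a trended or robust prior, an adjusted p under 0.1 and leaving out each array; 2 combinations with the block were added after seeing the data.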

Additional observations from a re-analysis of the deposited data

How the results depend on the processing

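No member was called under any of the 13 alternatives set out at the start, where the lowest member adjusted p in limma ran from 0.0573 (spike-in scaling) to 0.718 (without negative replicate 1). The replicate block left both counts of calls at 0, over all probe sets (lowest adjusted p = 0.0974) and among members (0.310); the block with quantile normalization did too, while the block with a trended prior called 2515 probe sets, 1 of them a member; both were chosen after seeing the data, and the prior there had 17.95 degrees of freedom, beside 3.56 for the block alone. Of 175 member differences under alternatives, 164 kept their sign and side of the threshold, 1 gained a call and 10 changed sign. Many could not change sign. The replicate block, the priors, the 0.1 threshold and leaving out probe sets keep each difference as deposited. Spike-in scaling, which adds a constant by construction, turned 7: Fos to 0.59, Fosb to 0.43, Fosl2 1422931_at to 0.44, Jun to 0.36 and 0.10, Jund 1449117_at to 0.067 and Atf3 to 0.32. Fos also turned to 0.081 with equal medians, and without 1 array it ran from -0.12 to 0.12, being above 0 without positive replicate 1 or negative replicate 1. On the spike-in scale 9 members lay above and 0 below, their median was 0.43, and 2513 probe sets were at least 1 log2 unit apart (2344 above, 169 below, beside 208 and 617 as deposited, and 300 and 516 with equal medians). On the deposited scale, taking 1 probe set per gene left 369 such probe sets, beside 825 with all probe sets. It left 2 members above, beside 4, with fewer rows tested. Leaving out 1 array gave 1874 to 2706 such probe sets and 5 to 8 members below, fewer arrays making separation easier. The 2 arrays per group and unknown detection limit what can be shown for the dim Jund probe set.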
